A study of Mus musculus with 2 samples.

Results

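Vascular calcification is driven in part by vascular smooth muscle cells (VSMCs) that take up genes of bone and cartilage, and 9 genes of that programme were followed here: Runx2, Sox9, Msx2, Bmp2, Bmp4, Alpl, Enpp1, Mgp and Tnfrsf11b. They were chosen by symbol for their known roles, with earlier results of these data known. All 9 were found among the 32285 genes of the matrix. The cells were primary aortic VSMCs of C57BL/6 mice in culture, bought from commercial vendors, of young (12 weeks) or old (58 to 78 weeks) animals. The 4 cultures were untreated young cells, young cells kept for 48 h in 100 nM angiotensin II (AngII), old cells, and old cells that had received 20 nM of a pool of siRNAs against the mechanosensitive channel Piezo1 (siPiezo1), the concentration in the sample labels, while the study's text also gives a higher one. The sex of the animals, the vendor of the cells in this library and whether the old controls received the non-targeting siRNA pool are not stated for this experiment. Antibodies with DNA barcodes (hashtags) marked the cells of each culture before pooling, and a single droplet library was made, whose values are counts of unique molecular identifiers (UMIs), so that amplified copies of 1 RNA molecule count as 1.

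Barcodes with 2218 or more gene UMIs and 200 or more genes were taken as cells. The 13045 cells held a median of 7915 UMIs. A cell was given a tag where 1 hashtag alone was above its cutoff, which placed 3144 cells in tag 1 (median 6816 UMIs), 497 in tag 2 (10663), 1500 in tag 3 (9453) and 1529 in tag 4 (9792), while 5307 cells (40.7%) carried no tag above its cutoff and 1068 carried several. The study's schematic numbers the young, old, young + AngII and old + siPiezo1 cells 1 to 4 but does not relate these numbers to hashtags, so cells are named by tag and the group names are presumptive. Each tag is 1 culture, so no test between tags was possible, and every interval below is a 95% interval for counting error only. Spread between cells and between cultures is left out, so the intervals are too narrow where counts vary more than sampling gives. Levels are UMIs per 1000000 gene UMIs (CPM), summed over the cells of a tag. For Piezo1, the siRNA target, tags 1 to 4 held 71.6 (68.2 to 75.01), 89.7 (81.96 to 97.9), 108 (103 to 114) and 86.9 (82.4 to 91.5) CPM, and the overlap of tags 2 and 4 leaves the identity of tag 4 unchecked by its target. The summed level of 9 VSMC markers was 910, 1720, 1089 and 691 CPM over tags 1 to 4, led by Tagln (608 over all cells) and Acta2 (339), while Myh11, the myosin of the contractile state, was at 4.41. Osteoblast markers (Sp7, Bglap, Bglap2, Ibsp, Dmp1, Phex) summed to 2.03 CPM over all cells and chondrocyte markers (Col2a1, Acan, Col9a1, Col10a1, Matn3, Chad) to 0.565. Over all cells each of the 6 genes of either list was under 1, with Acan and Chad at 0. Over tags 1 to 4 the osteoblast markers summed to 1.04, 2.15, 4.02 and 1.12 CPM. Bglap and Bglap2 were at 1.27 and 1.41 CPM in tag 3 (19 and 21 UMIs), against 0.0415 and 0.290 in tag 1 (1 and 7 UMIs). Phex was at 1.79 CPM in tag 2 (10 UMIs). Endothelial and macrophage markers summed to 4.67 and 8.35 CPM over all cells. Epithelial markers (Epcam, Krt8, Krt18, Krt5, Upk1b, Cdh1) summed to 9.84 CPM over all cells, led by Upk1b at 5.70. Over tags 1 to 4 the epithelial markers summed to 8.04, 19.0, 16.0 and 6.71 CPM. Fibroblast markers (Pdgfra, Dcn, Lum, Dpt, Pi16, Col14a1) summed to 603 CPM over all cells, led by Dcn at 537. Over tags 1 to 4 they summed to 525, 545, 722 and 748.5 CPM, in tag 4 above the VSMC markers.

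In bone and cartilage, RUNX2 is the master transcription factor of osteoblasts, SOX9 that of chondrocytes, and MSX2 a homeobox factor induced by bone morphogenetic proteins (BMPs). BMP2 and BMP4 are secreted ligands that act through SMAD proteins. Mineral forms where pyrophosphate, its local inhibitor, is low: ENPP1 makes pyrophosphate from ATP and ALPL, the tissue-nonspecific alkaline phosphatase, breaks it down. Matrix Gla protein (MGP), which needs vitamin K to be active, binds mineral and BMP2, and the vessel wall of mice without it calcifies. TNFRSF11B, or osteoprotegerin, is the decoy receptor of the osteoclast ligand RANKL.

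Runx2 and Alpl are the textbook regulator and mineralizing enzyme of this programme, and their promoters are shown because the cells held the first at a moderate level and the second near its limit of detection. The sequences are those of RefSeq on GRCm38.p6, from 250 bases before to 50 after the start, printed 5′ to 3′ on the gene's strand. Capitals mark the RUNX motif TGTGGT, read here as ACCACA on the other strand, in Runx2 (chr17:44814578-44814877, minus strand) and the BMP-SMAD motif GGCGCC in the upstream start of Alpl (chr4:137796335-137796634, minus strand).
Runx2: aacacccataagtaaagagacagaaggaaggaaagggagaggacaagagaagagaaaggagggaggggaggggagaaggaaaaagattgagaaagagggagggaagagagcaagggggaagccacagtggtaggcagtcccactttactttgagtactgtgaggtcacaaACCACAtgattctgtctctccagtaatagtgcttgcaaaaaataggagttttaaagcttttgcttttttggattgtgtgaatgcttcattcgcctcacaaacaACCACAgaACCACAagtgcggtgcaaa
Alpl: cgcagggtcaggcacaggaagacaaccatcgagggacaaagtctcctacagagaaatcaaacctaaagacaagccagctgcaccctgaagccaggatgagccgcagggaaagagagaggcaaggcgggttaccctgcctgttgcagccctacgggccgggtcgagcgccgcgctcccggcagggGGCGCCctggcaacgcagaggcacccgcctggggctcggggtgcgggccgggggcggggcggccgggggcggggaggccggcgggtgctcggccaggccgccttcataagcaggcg
The Runx2 window held 3 RUNX matches and no GGCGCC, and the upstream Alpl window held GGCGCC and no RUNX match. A second Alpl window, downstream at chr4:137766426-137766725, held neither motif and is not printed. Searching both strands, TGTGGT was found in 16.8% of all 32851 promoter windows (at least 3 matches in 0.183%) and GGCGCC in 11.9%. The GC content was 45.3% in the Runx2 window, 70.0% in the upstream Alpl window and 54.3% in the downstream one. The median over all windows was 52.7%. Among the other members with an entry, Enpp1 held 1 RUNX match and Msx2 and Bmp4 held neither motif. The matches describe letters in these windows and were not tested as binding sites.

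The UMIs count transcript ends and so do not scale with gene length. On the CPM scale the members spanned over 3 orders of magnitude. Mgp led at 1675 CPM over all cells (192667 UMIs), followed by Runx2 at 69.2 (7955 UMIs), Sox9 at 52.9 (6090) and Bmp2 at 19.0 (2182). Enpp1 (4.25 CPM), Msx2 (2.88) and Tnfrsf11b (1.77) formed a low group, and Bmp4 (0.826; 95 UMIs) and Alpl (0.461; 53 UMIs) were the lowest. Mgp had at least 1 UMI in 78.4% of the cells, Runx2 in 38.4%, Sox9 in 28.1%, Bmp2 in 9.22% and Alpl in 0.406%. Free RNA in the droplets also gives UMIs, and no cell type known to lack these genes was present. Xist was at 334 CPM in near-empty barcodes (1 to 100 UMIs) and at 16.98 CPM in the cluster of at least 500 cells that held least of it, so free RNA made up at most 5.08% of the UMIs of those cells. At that ceiling free RNA would bring 75.4 CPM of Mgp, 2.79 of Runx2, 3.08 of Sox9, 0.702 of Bmp2 and 0.218 of Msx2 into a cell of that cluster, numbered 2 below. The ceiling in cells of other clusters was not measured.

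**Figure D1:**
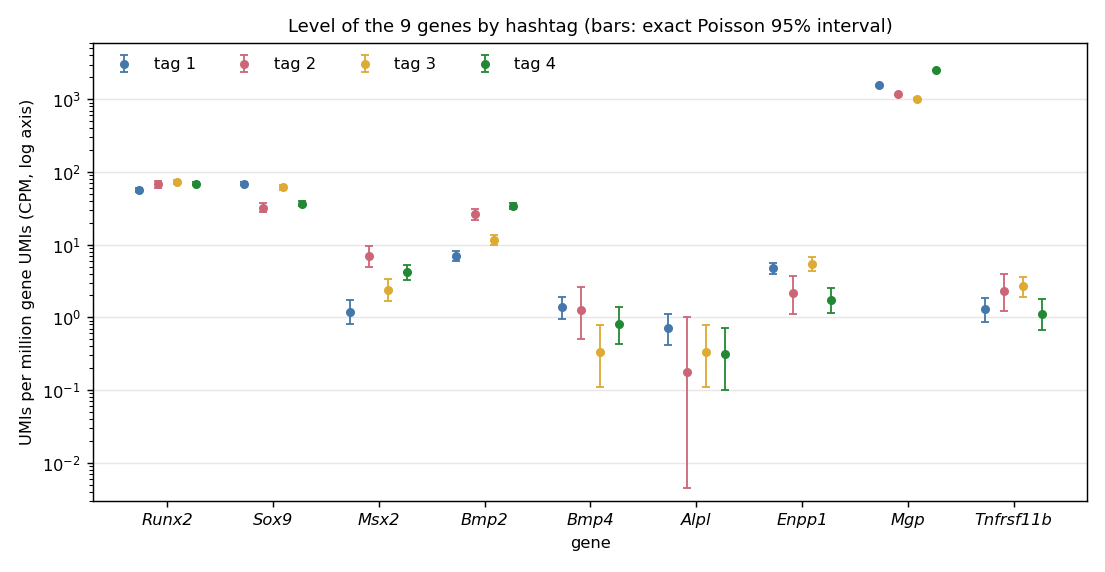
CPM (log axis) of the 9 genes in tags 1 to 4; points are the level over all cells of a tag and bars its exact Poisson 95% interval. Mgp lies between 1010 and 2533 in every tag, Runx2 between 56.6 and 73.4, and Alpl stays under 1 in every tag.

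Among the transcription factors, Runx2 was the most even over the tags. Tags 1 to 4 held 56.6 (53.7 to 59.7), 67.8 (61.1 to 74.96), 73.4 (69.1 to 77.9) and 69.3 (65.3 to 73.5) CPM. Tag 1 was lowest and its interval met no other, while the intervals of tags 2, 3 and 4 overlapped. Runx2 was 1.197-fold (1.07 to 1.34) in tag 2 over tag 1, 1.30-fold (1.196 to 1.40) in tag 3 over tag 1 and 1.02-fold (0.909 to 1.15) in tag 4 over tag 2. Among cells with a Y-linked UMI and no Xist UMI the ratio of tag 2 over tag 1 was 1.002 (0.769 to 1.29), and in cluster 0 it was 0.763 (0.551 to 1.07). Both intervals hold 1. The 55 tag 1 cells of cluster 0 are among 569 tag 1 cells of which 74.7% were called doublets, as described below. Without called doublets the ratio was 1.297 (1.13 to 1.49). With tag 1 only in clusters where over 50% of cells carried it, it was 1.36 (1.205 to 1.54). With hashtag cutoffs times 1.5 it was 1.13 (0.970 to 1.305). Runx2 overlaps 4 genes on the opposite strand, among them Supt3, and spans chr17:44495987-44814797 (GRCm38, minus strand). When each cell was thinned to 5000 UMIs, which removes the difference in depth, 23.4% (21.7 to 25.1), 25.8% (21.96 to 30.02), 27.4% (24.99 to 29.8) and 25.5% (23.3 to 27.9) of the cells of tags 1 to 4 had a Runx2 UMI, with every interval overlapping the others. At full depth the share was 30.6% in tag 1 and 44.3 to 46.0% in the deeper tags.

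Sox9 (chr11:112782224-112787760, plus strand) separated the tags in another way. It was at 68.6 CPM (65.3 to 72.0) in tag 1 and 61.2 (57.3 to 65.3) in tag 3, against 32.3 (27.7 to 37.4) in tag 2 and 36.8 (33.9 to 39.8) in tag 4. Tags 1 and 3, the presumptive young cultures, were above tags 2 and 4, the presumptive old ones, and the intervals of tags 2 and 4 overlapped. Tag 2 held 0.471 times (0.401 to 0.549) the level of tag 1, tag 3 held 0.893 times (0.822 to 0.968), and tag 4 held 1.14 times (0.962 to 1.35) that of tag 2. In thinned cells a Sox9 UMI was seen in 22.9% and 21.6% of tags 1 and 3 and in 15.5% and 14.1% of tags 2 and 4. Among cells with a Y-linked UMI and no Xist UMI (54.1% of tag 1 and 19.5% of tag 2), tag 2 (97 cells) held 0.594 times (0.433 to 0.796) the Sox9 of tag 1, and in cluster 0 it held 0.751 times (0.486 to 1.19), nearer to 1 than over all cells. The tag 1 cells of cluster 0 carry the limit given for Runx2. Without called doublets the Sox9 ratio was 0.449 (0.373 to 0.5375). Other values also differed between the tags. The share of cells with a Y-linked UMI and no Xist UMI was 54.1%, 19.5%, 55.5% and 13.8% over tags 1 to 4. It splits the tags as presumptive age does, so this share and presumptive age cannot be told apart by tag. Interferon-response markers summed to 2519, 72.3, 283 and 81.8 CPM over tags 1 to 4, which sets tag 1 apart in each comparison with it, and the median share of mitochondrial UMIs was 1.08%, 1.84%, 0.224% and 1.86%. Their part in the levels of the members was not tested.

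Msx2 (chr13:53466884-53473074, minus strand) was rare, with 29, 39, 36 and 67 UMIs in tags 1 to 4. These gave levels of 1.202 (0.805 to 1.73), 6.99 (4.97 to 9.56), 2.41 (1.69 to 3.34) and 4.16 (3.22 to 5.28) CPM. The order was tag 2, tag 4, tag 3 and tag 1, and the intervals of neighbours in that order overlapped, while that of tag 2 met neither tag 3 nor tag 1. With 68 UMIs in tags 1 and 2 together the gene was under the minimum of 100 for that comparison, in which its ratio was 5.82 (3.51 to 9.75). The ratio of tag 4 over tag 2 was 0.595 (0.395 to 0.907), and it rests on 106 UMIs.

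Of the ligands, Bmp2 (chr2:133552159-133562885, plus strand) differed most. Tags 1 to 4 held 7.05 (6.03 to 8.19), 26.2 (22.1 to 30.8), 11.7 (10.1 to 13.6) and 33.96 (31.2 to 36.9) CPM. No counting interval overlapped another, and the order was tag 4, tag 2, tag 3 and tag 1. A single tag 2 cell held 18 of the 146 Bmp2 UMIs of that tag. Bmp2 was 3.71-fold (2.96 to 4.66) in tag 2 over tag 1, 1.66-fold (1.34 to 2.07) in tag 3 over tag 1 and 1.30-fold (1.08 to 1.57) in tag 4 over tag 2. In thinned cells the share with a Bmp2 UMI was 2.34% (1.77 to 3.02), 7.98% (5.71 to 10.8), 4.399% (3.37 to 5.63) and 11.9% (10.3 to 13.7) over tags 1 to 4, in the same order. For these shares the intervals of tags 2 and 4 overlapped. The variance over the mean of the thinned counts was 1.83 over all cells, above the value of 1 that sampling alone gives, with up to 7 Bmp2 UMIs in a cell. Intervals of CPM and ratios leave this spread out. The step from tag 2 to tag 4 is therefore not settled by them. Bmp4 (chr14:46383520-46390669, minus strand) had 33, 7, 5 and 13 UMIs in tags 1 to 4, or 1.37 CPM (0.942 to 1.92), 1.26 (0.505 to 2.59), 0.335 (0.109 to 0.781) and 0.807 (0.430 to 1.38). Only the intervals of tags 1 and 3 did not overlap for Bmp4, and its UMIs in each comparison were under 100.

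The tag 1 level of Bmp2 came mostly from cells that stood apart from the rest of tag 1. Cells were clustered without the 9 members and without the genes of their pathways among the variable genes, and over 50% of the cells of 4 of the 14 clusters (2, 7, 10 and 11) carried tag 1. These clusters held 2575 of the tag 1 cells, 11.9% of them called doublets (2 cells in a droplet), and the other 569 tag 1 cells were called doublets in 74.7% of cases. Bmp2 was at 1.58 CPM (1.05 to 2.28; 28 UMIs) in the first and at 22.3 (18.8 to 26.3; 142 UMIs) in the second. Msx2 showed a like split, at 0.620 CPM (0.309 to 1.11) and 2.83 (1.68 to 4.47). Xist, which cells of males lack, went with them, at 18.3 CPM and 376 CPM. The Sox9 level was 70.5 and 63.1 CPM in the same cells, and Mgp was at 1617 and 1375. With tag 1 restricted to its own clusters, an alternative added after these values were seen, Bmp2 was 16.6-fold (11.02 to 25.8) in tag 2 over tag 1 and 7.43-fold (4.97 to 11.5) in tag 3 over tag 1. Without called doublets in any tag the ratios were 6.52 (4.82 to 8.87) and 2.45 (1.81 to 3.34). In the 55 tag 1 cells of cluster 0, the only cluster with at least 50 cells of tags 1 and 2, Bmp2 was at 76.4 CPM, and the ratio of tag 2 over tag 1 was there on the other side of 1, at 0.623 (0.421 to 0.941). Whether the tag 1 cells outside their clusters are mislabelled or mixed was not tested.

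**Figure D2:**
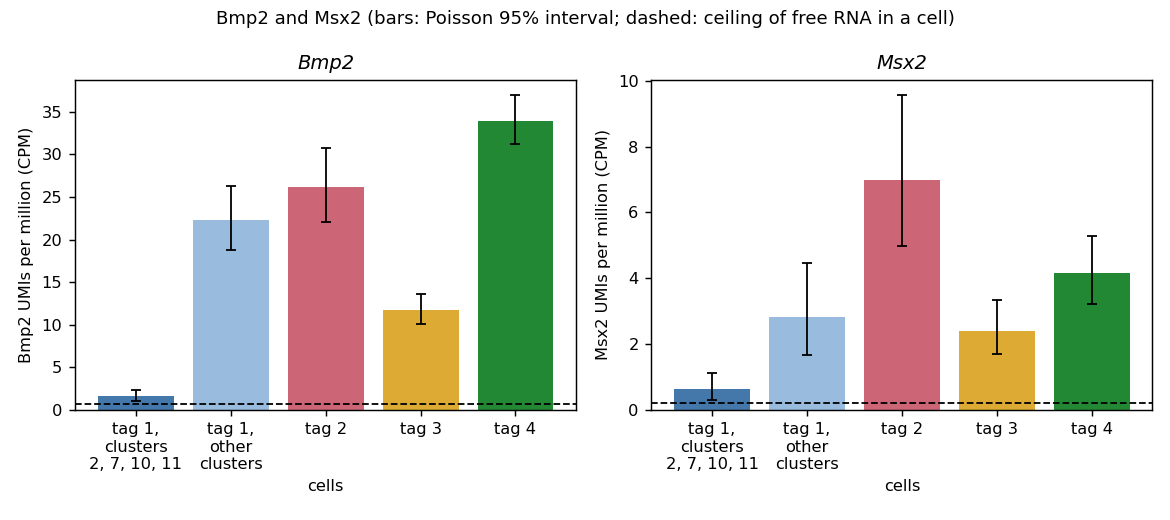
Bmp2 (left) and Msx2 (right) in CPM, for tag 1 cells in clusters 2, 7, 10 and 11, tag 1 cells in the other clusters, and tags 2, 3 and 4. Bars are levels with exact Poisson 95% intervals. The dashed line is the ceiling of free RNA in a cell of cluster 2, not measured for the other cells. Bmp2 is at 1.58 in the first group and at 22.3 in the second, between tags 3 and 2.

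The enzymes of the pyrophosphate balance were both low. Enpp1 (chr10:24637914-24712159, minus strand) held 4.73 (3.90 to 5.68), 2.15 (1.11 to 3.76), 5.49 (4.37 to 6.82) and 1.74 (1.16 to 2.51) CPM over tags 1 to 4. As for Sox9, tags 1 and 3 were above tags 2 and 4, and the intervals overlapped within each of these pairs. This split is again that of presumptive age and of the share of cells with a Y-linked UMI and no Xist UMI. The ratio of tag 2 over tag 1 was 0.455 (0.229 to 0.827), with 12 and 114 UMIs. Of the 114 UMIs of tag 1, 31 came from the 137 tag 1 cells of cluster 10, and without that cluster the ratio was 0.596 (0.296 to 1.10), an interval that holds 1. Alpl (chr4:137741733-137796384, minus strand) had 17, 1, 5 and 5 UMIs in tags 1 to 4, and no cell held more than 1. Its level was 0.705 CPM (0.411 to 1.13) in tag 1, and the intervals of all 4 tags overlapped, with upper bounds of 0.725 to 1.13. A difference in Alpl between the tags was therefore not detectable at this depth.

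Of the inhibitors, Mgp (chr6:136872435-136875823, minus strand) was the most abundant of the 9 members. Tags 1 to 4 held 1553 (1537 to 1569), 1163 (1135 to 1192), 1010 (994 to 1026) and 2533 (2509 to 2558) CPM. The 4 intervals did not overlap, with tag 4 highest and tag 3 lowest. Mgp was 2.18-fold (2.12 to 2.24) in tag 4 over tag 2, 0.749-fold (0.730 to 0.769) in tag 2 over tag 1 and 0.650-fold (0.638 to 0.663) in tag 3 over tag 1. The Mgp ratio of tag 2 over tag 1 depended on the choice of cells. Among cells with no Mki67, Top2a or Cdk1 UMI it was 0.974 (0.941 to 1.01), and with hashtag cutoffs times 1.5 it was 0.913. Among cells with a Y-linked UMI and no Xist UMI it was 0.671 (0.631 to 0.713). It was 0.489 (0.455 to 0.525) in cluster 0, whose tag 1 cells carry the limit given for Runx2. Tnfrsf11b (chr15:54250619-54278484, minus strand) held 1.29 (0.873 to 1.82), 2.33 (1.24 to 3.99), 2.68 (1.91 to 3.65) and 1.12 (0.662 to 1.77) CPM over tags 1 to 4. Tag 3 was above tags 1 and 4, whose intervals it did not meet, and that of tag 2 overlapped every other. Its UMIs were under 100 in every comparison.

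The excess of Mgp in tag 4 was present within clusters. In cluster 0, where both tags had most cells, Mgp was at 1179 CPM in 216 tag 2 cells and 3066 in 537 tag 4 cells, a ratio of 2.60 (2.49 to 2.72). It was 3.1 (2.91 to 3.30) in cluster 1, whose leading genes are those of dividing cells, and 3.25 (3.04 to 3.47) in cluster 6, led by the contractile genes Actg2 and Cnn1. All 3 were above the ratio over all cells. Over the other choices of cells, tags and scale the ratio ran from 1.77 (own hashtag at least 3 times the next) to 3.06 (only cells with a Y-linked UMI and no Xist UMI), and stayed above 1.5 in each. In contrast, Bmp2 in tag 4 over tag 2 was 0.839 (0.655 to 1.08) in cluster 0 and 2.14 (1.43 to 3.32) in cluster 1, and it was 0.695 (0.238 to 1.95) in cluster 6. It was 0.844 (0.662 to 1.08) among cells with no Mki67, Top2a or Cdk1 UMI and 0.589 (0.361 to 0.966) among cells with a Y-linked UMI and no Xist UMI, where its direction was turned. For tag 3 over tag 1, Mgp was 0.937 (0.872 to 1.01) in cluster 3 and 0.803 (0.760 to 0.848) in cluster 4, nearer to 1 than over all cells. Of the cells of cluster 4, 82.5% were called doublets. The tag 1 cells of both clusters, 70 of them in cluster 3, are among the 569 tag 1 cells of which 74.7% were called doublets.

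Mgp also varied widely between cells. In cells thinned to 5000 UMIs its median count was 2, its 90th percentile 22 and its highest count 483, and the tenth of the cells with most Mgp held 63.9% of its UMIs. The variance over the mean, which grows with the mean count, was 51.5, against 1.19 for Runx2 and 1.55 for Sox9, and the cells above the same rank held 50.5% of the Runx2 UMIs and 64.3% of the Sox9 UMIs. The median was 2 in tag 1, 1 in tag 2, 1 in tag 3 and 3 in tag 4, while the mean was 7.42, 6.09, 5.05 and 14.2. At least 20 Mgp UMIs were found in 9.68% of thinned tag 1 cells, 7.35% of tag 2, 6.89% of tag 3 and 19.2% of tag 4. Tag 4 thus had more cells at a high count, and it also had a higher 75th percentile, 14 against 3 in tag 2.

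**Figure D3:**
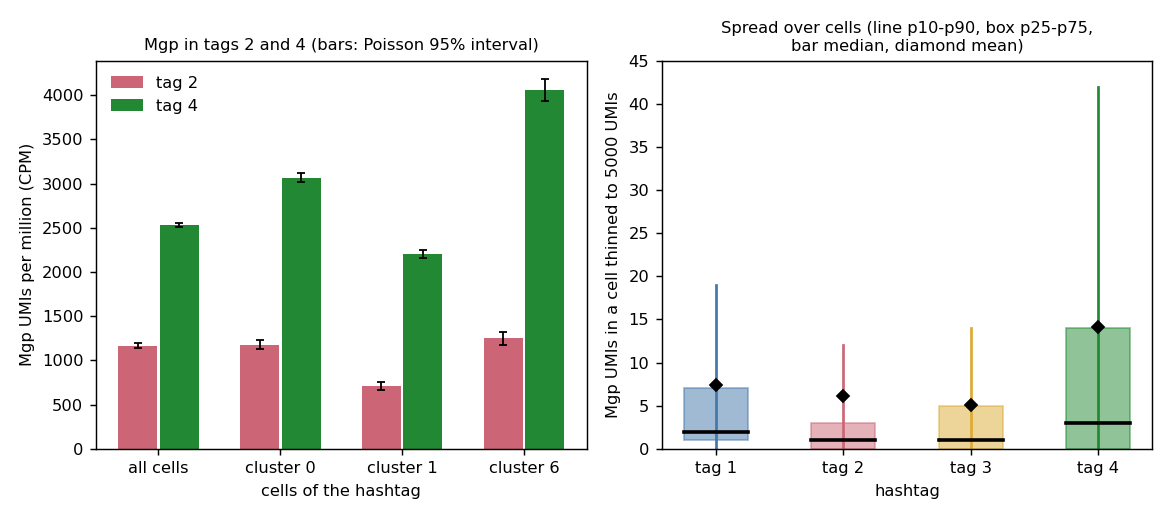
Left, Mgp in CPM in tags 2 and 4 over all their cells and within clusters 0, 1 and 6, with exact Poisson 95% intervals. Right, Mgp UMIs per cell after thinning to 5000 UMIs, as 10th to 90th percentile (line), quartiles (box), median (bar) and mean (diamond) in each tag. Tag 4 is above tag 2 in every pair on the left, and its 90th percentile of 42 is the highest on the right.

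A gene was counted as higher or lower where its ratio was at least 1.5-fold and it had at least 100 UMIs over both tags. In each comparison 5 of the 9 members had 100 UMIs. They were Runx2, Sox9, Bmp2, Enpp1 and Mgp in both comparisons with tag 1, and Msx2 took the place of Enpp1 in tag 4 over tag 2. For tag 2 over tag 1, 1 member was higher (Bmp2), where 9.22% of all 11112 genes with 100 UMIs were, and 2 were lower (Sox9 and Enpp1), where 12.8% were. For tag 3 over tag 1, 1 was higher (Bmp2; 8.03% of 11623 genes) and 1 lower (Mgp; 10.4%), and the Mgp ratio of 0.650 lay close to the limit. For tag 4 over tag 2, 1 was higher (Mgp; 3.11% of 10402 genes) and 1 lower (Msx2; 1.36%). The median ratio of the 5 members of each comparison, not the same set in all, was 0.749, 1.16 and 1.14. That of all genes with 100 UMIs was 1.01, 1.02 and 1.02. The members did not move together: each comparison had members on both sides of 1.

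**Figure D4:**
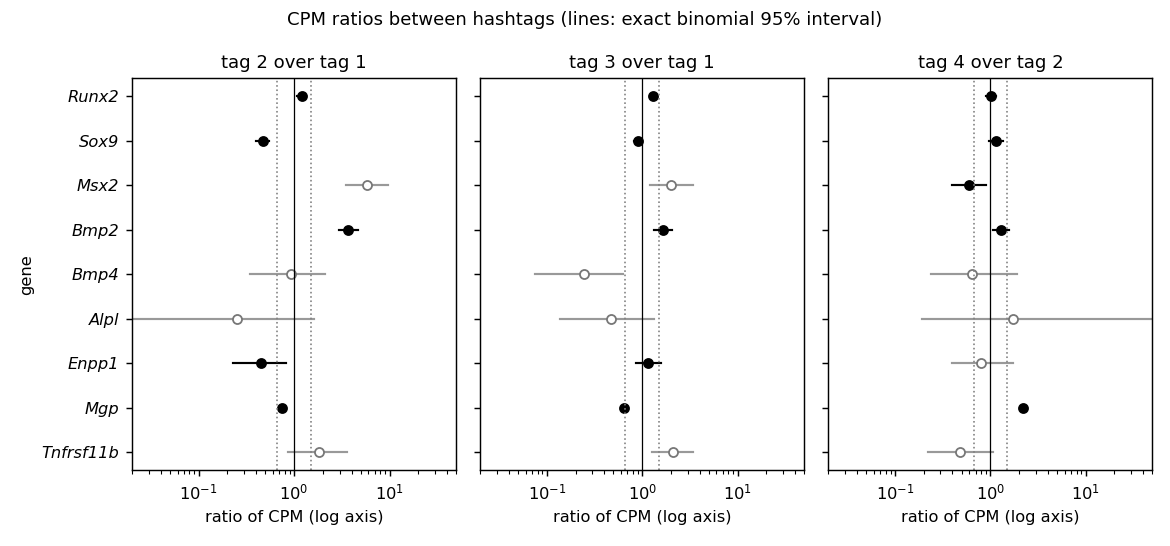
CPM ratios (log axis) of the 9 genes in the 3 comparisons, with exact binomial 95% intervals cut at the axis limits. Filled points have at least 100 UMIs over both tags, open points fewer, and dotted lines mark 1.5-fold. Bmp2 is at 3.71 for tag 2 over tag 1 and Mgp at 2.18 for tag 4 over tag 2.

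Across the 14 clusters the members did not all peak in the same cluster. Bmp2 was highest in cluster 9 (leading genes Lmo7, C1qtnf7 and Klra4; 64.9% of its cells in tag 4) at 47.6 CPM (40.8 to 55.4) and in cluster 0 (Clu, Csf3, Peg10) at 38.8 (36.1 to 41.6). It was at 1.02 (0.542 to 1.74; 13 UMIs) in cluster 2 (Ifit3, Ifit3b, F830016B08Rik; 89.4% tag 1) and at 0.432 (0.0524 to 1.56; 2 UMIs) in cluster 7 (Cdkn3, Ckap2l, Plk1; 93.5% tag 1), intervals that hold the 0.702 CPM that free RNA can bring. That amount is the ceiling set in cluster 2. Bmp2 in these clusters was thus not distinguished from background at that ceiling. Sox9 was highest in cluster 12 (Upk1b, Spon2, Wt1; 104 cells) at 115 CPM (94.4 to 138) and in cluster 2 at 84.3 (79.4 to 89.5), and lowest in clusters 9 and 11 at 16.7 and 16.9. Cluster 9, highest in Bmp2, was thus among the lowest in Sox9. In cluster 12 Mgp also reached its highest level, 4877 CPM (4739 to 5017), followed by cluster 11 (Cxcl10, Ifit3, Oasl1) at 2668 and cluster 0 at 2265. Upk1b, which leads cluster 12, is among the epithelial markers listed above. The VSMC markers summed to 518 CPM in cluster 12, against 1064 over all cells, 383 in cluster 0 and 215 in cluster 9. The cell type of cluster 12 was not tested.

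Enpp1 was concentrated in cluster 10 (Frem2 and Gm15286 among its leading genes), 181 cells of which 75.7% carried tag 1, at 37.4 CPM (28.5 to 48.3; 59 UMIs), against 9.03 (7.01 to 11.5) in cluster 5 (Ccne2, Slfn9, Ccne1), the next highest. Cluster 10 held 1.39% of the cells, and 24.3% of them were called doublets. Msx2 and Tnfrsf11b were both highest in cluster 6 (Actg2, Cnn1, Gabrb1), at 6.76 CPM (4.89 to 9.10) and 6.13 (4.36 to 8.38), the cluster whose VSMC markers summed to 3744 CPM. Tnfrsf11b was next highest among clusters with 10 UMIs or more in cluster 3 (Lce1g, Serpinb2, Zfp804a), at 3.29 (2.47 to 4.29). Runx2 lay between 49.3 and 83.7 CPM except in cluster 13 (Zfp804a, Gm12153, Gm12381; 87 cells) at 226 (184 to 276; 99 UMIs), cluster 10 at 26.01 (18.7 to 35.3) and cluster 8 (Prl8a9, Perp, Crct1) at 16.9 (11.9 to 23.2). Cluster 13 was also the lowest in Mgp, at 304 CPM (255 to 360), and it differed in RNA make-up: ribosomal protein genes were 4.54% of its UMIs and Malat1, a nuclear RNA, was at 89610 CPM, against 16.5 to 26.9% and 5406 to 22930 CPM in the other clusters. At the other end, cluster 8 held the 26.9% and the 5406 CPM, with the lowest median depth of the clusters, 3496 UMIs. The part of these differences in the Runx2 and Mgp levels of clusters 8 and 13 was not tested.

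**Figure D5:**
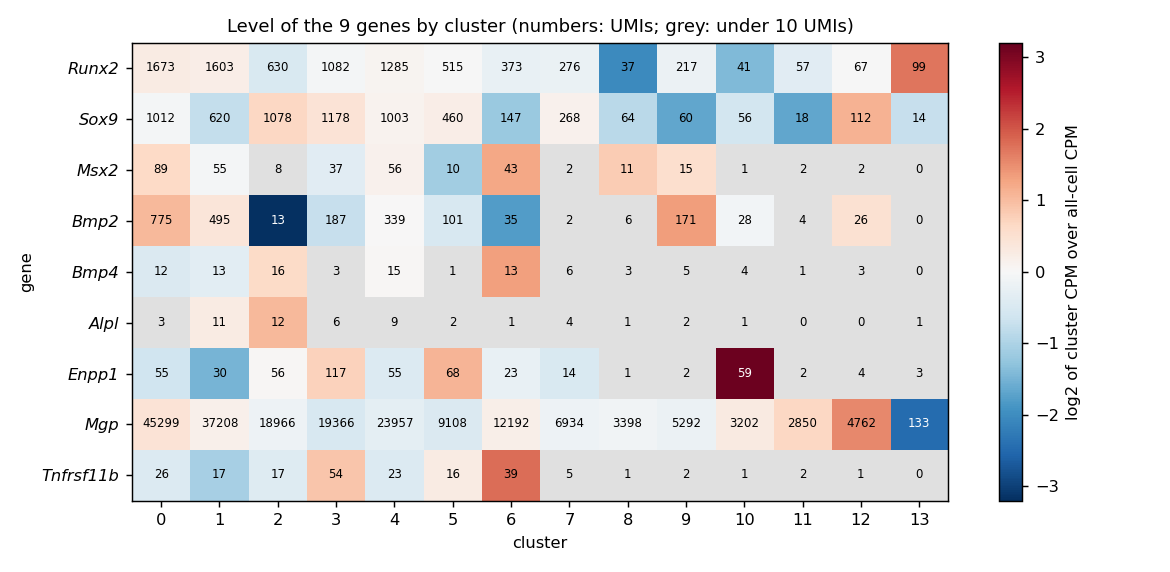
Level of the 9 genes in the 14 clusters as the log2 of cluster CPM over all-cell CPM (colour), with the number of UMIs in each field and grey where under 10. Enpp1 stands out in cluster 10 (37.4 CPM), Runx2 in cluster 13 (226 CPM) and Bmp2 is lowest among the coloured fields in cluster 2 (1.02 CPM).

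Within a tag the members were found together in a cell about as often as their separate shares predict. In 5652 tagged, thinned cells, Runx2 and Sox9 were both seen in 295 where 279 were expected, Runx2 and Bmp2 in 89 where 82.4 were, and Bmp2 and Mgp in 219 where 223 were. Over the 10 pairs the ratio of found to expected ran from 0.881 (Bmp2 and Enpp1, 4 cells) to 1.203 (Sox9 and Enpp1, 28 cells). These pairs share cells and depth, and such sparse counts show no joint pattern. Over the 14 clusters the correlation of log2(CPM + 1) between members was weak or depended on cluster 13: that of Runx2 and Mgp was -0.49 with it and 0.07 without. The genes most like a member over the clusters, among 6342 genes with at least 20 CPM, were Ints6, Etv6 and Rassf8 for Runx2 (r = 0.99, 0.98 and 0.98), Selenop, Rab32 and Inhbb for Sox9 (0.83, 0.76 and 0.76), Odc1, Arl4c and Marcksl1 for Bmp2 (0.90, 0.89 and 0.87), and Acaa2, Vamp7 and P3h4 for Mgp (0.93, 0.93 and 0.93). Without cluster 13 the values were 0.96 to 0.98 for Runx2, 0.77 to 0.84 for Sox9, 0.83 to 0.88 for Bmp2 and 0.797 to 0.814 for Mgp. Each gene named was picked as highest among 6342 over only 14 clusters, which by itself favours high values. The values without cluster 13 are of the same picked genes. The clusters share 1 library and differ in depth, so these values are descriptions.

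The wider pathways were read from 10 lists, of which 93 genes were found. Their ratios are over all cells of a tag, with the 569 tag 1 cells outside the tag 1 clusters kept in. Of those cells 74.7% were called doublets. The other choices of cells tried for the members were not tried for these genes. Of the BMP antagonists, 10 had 100 UMIs. Of these, 3 were higher and 2 lower in tag 2 over tag 1 (9.22% and 12.8% of all genes), 5 were higher and 0 lower in tag 3 over tag 1 (8.03% and 10.4%), and 1 was higher in tag 4 over tag 2 (3.11%). Fst (follistatin, which binds activins and BMPs) was at 188, 451, 223 and 892 CPM in tags 1 to 4, and Grem1 (gremlin, a BMP2 and BMP4 antagonist) at 280, 611, 268 and 658. Both were thus higher in tags 2 and 4, where Bmp2 was. Among the genes higher in tag 3 over tag 1 were Smad6 at 2.33-fold (2.01 to 2.70) and Smad7 at 1.96-fold (1.85 to 2.08). SMAD6 and SMAD7 are inhibitory SMADs that BMP and TGF-beta signals induce.

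Of the 8 BMP effectors and targets, all with 100 UMIs in tags 1 and 3, 3 were higher in tag 3 over tag 1 and 0 were lower (8.03% and 10.4% of all genes). Id2 was 2.08-fold (1.93 to 2.25) and Id4 1.76-fold (1.25 to 2.49), and Id3, the most abundant, was 1.23-fold (1.197 to 1.27). The ID proteins are dominant-negative helix-loop-helix factors induced by BMPs. For tag 2 over tag 1, 1 of 7 was higher (Id4, 2.91-fold, 1.95 to 4.30), where 9.22% of all genes were. For tag 4 over tag 2, 1 of 7 was lower (Id4, 0.477-fold, 0.320 to 0.717), where 1.36% of all genes were. The BMP receptors held within 1.5-fold in each comparison (0 of 6 past it). By comparison and direction, 1.36 to 12.8% of all genes were past it. Bmpr2 was at 109, 102, 117 and 106 CPM in tags 1 to 4. Of the other BMP ligands, Bmp6 was at 0.339 times (0.151 to 0.665) in tag 2 over tag 1 and 0.562 times (0.382 to 0.812) in tag 3 over tag 1, and Bmp1, which is a procollagen protease despite its name, led the list at 81.3 CPM over all cells.

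Among 10 phosphate and pyrophosphate genes found, 3 of 5 with 100 UMIs were higher and 1 lower in tag 3 over tag 1 (8.03% and 10.4% of all genes). Ank, the pyrophosphate exporter, was 2.01-fold (1.65 to 2.45), and Slc20a1, a sodium-phosphate cotransporter, 1.75-fold (1.53 to 2.0), while Smpd3, a sphingomyelinase, was 0.590-fold (0.448 to 0.771). Slc20a2, the second such cotransporter, was at 33.7, 52.2, 53.3 and 48.1 CPM in tags 1 to 4. In the list of the vitamin K cycle and mineral inhibitors, Spp1 (osteopontin) dominated with 3418, 8229, 5782 and 9233 CPM, 2.41-fold (2.38 to 2.44) in tag 2 over tag 1, and Gas6 was at 0.578 times (0.494 to 0.673). Vkorc1, the vitamin K reductase that MGP carboxylation depends on, was at 97.1, 70.8, 93.6 and 74.3 CPM. On the osteoprotegerin side, Tnfrsf11a, the RANKL receptor, was at 2.36, 6.81, 2.61 and 6.15 CPM. These levels rest on 57, 38, 39 and 99 UMIs, under the minimum of 100 in both comparisons with tag 1. Of the 3 genes of the list with 100 UMIs, 1 was lower in tag 2 over tag 1 (Tnfrsf23, at 0.649 times), where 12.8% of all genes were.

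Of the 12 osteoblast and osteocyte genes, 4 had 100 UMIs in tags 1 and 2, and all 4 were lower in tag 2 over tag 1, where 12.8% of all genes were: Postn at 0.222 times (0.1 to 0.432), Col1a2 at 0.337 (0.322 to 0.352), Col1a1 at 0.406 (0.382 to 0.430) and Sparc at 0.425 (0.412 to 0.438). These 4 are matrix genes that fibroblasts and VSMCs also make. The genes more specific to bone cells were each under 1 CPM over all cells. For tag 3 over tag 1, 2 of 4 were lower, where 10.4% of all genes were. For tag 4 over tag 2, 0 of 3 were past 1.5-fold, where 3.11% of all genes were higher and 1.36% lower. Among further osteochondrogenic transcription factors, Sox5, a partner of SOX9, was at 268 CPM in tag 1, 108 in tag 2, 85.5 in tag 3 and 135 in tag 4, so that unlike Sox9 it was past 1.5-fold lower in tag 3 over tag 1 as well. Trps1, a GATA-type repressor of cartilage development, was at 90.6, 155, 56.5 and 213 CPM. Col11a1, a fibrillar collagen of cartilage and the only chondrocyte gene with 100 UMIs, was at 0.412 times (0.377 to 0.450) in tag 2 over tag 1 and 0.912 times (0.873 to 0.952) in tag 3 over tag 1, on the same side of 1 as Sox9 in both. In tag 4 over tag 2 Col11a1 was at 0.729 times (0.658 to 0.808), while Sox9 was at 1.14 times (0.962 to 1.35), on the other side of 1.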

How the data were processed

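Cultured VSMCs of 4 groups were hashed, mixed and sequenced as 1 library. The deposited values are raw UMI counts that the authors made with Cell Ranger (version 4 by the matrix header), for every barcode. The genome build was not given in the sources used here. Coordinates come from GENCODE vM21 (GRCm38), matched on Ensembl identifiers. The submitters' processing notes name Cell Ranger and Seurat. The unmapped columns of per-sample values number 0.

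Hashtag cutoffs were 36, 52, 61 and 41 UMIs for tags 1 to 4. In their own cells, the median hashtag UMIs were 364, 76, 113 and 67, and in cells without a tag 10, 15, 31 and 20. Intervals are exact Poisson (CPM), exact binomial (ratios) and Clopper-Pearson (shares). Cells are not replicates, so no test was run. Clusters came from Seurat 5.3.0 in R 4.3.3 (2000 variable genes, 1974 after members and pathway genes were removed, 30 principal components, 20 neighbours, resolution 0.8). Scrublet (scanpy 1.11.5, expected rate 0.1) called 23.4% of cells doublets, which were kept unless stated. Thinning to 5000 UMIs left out 2433 shallower cells. The ratio code was tested on simulated Poisson counts. These lack the extra spread between cells seen for Mgp, Bmp2 and Sox9, so the test does not cover it.

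The genes named are the 9 members, up to 3 genes per pathway list with most UMIs and up to 3 furthest from a ratio of 1, the 3 genes most like each member with 500 UMIs, and each cluster's 3 leading genes. Some genes that this rule names are not reported here. Xist, Malat1, Piezo1 and cell type markers serve as checks, Malat1 chosen after its values were seen. The members and lists were chosen with earlier results of these data known. Promoters came from RefSeq tables for 5 members; Sox9, Bmp2, Mgp and Tnfrsf11b had no entry.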

Additional observations from a re-analysis of the deposited data

How the results depend on the processing

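The counts of members past 1.5-fold are small, so 1 gene moves them. For tag 2 over tag 1 the count of higher members (1, Bmp2) became 0 among Y-linked cells without Xist and with a minimum of 500 UMIs, where Bmp2 had too few UMIs, and 3 with a minimum of 20 UMIs (Msx2 and Tnfrsf11b added). The count of lower members (2) became 1 (Sox9) with the own hashtag at least 3 times the next, without called doublets, with thinning, among Y-linked cells, among cells without Mki67, Top2a or Cdk1 UMIs, with a minimum of 500 UMIs and without cluster 10, each of which left out Enpp1. The Enpp1 ratio, 0.455 over all cells, was 0.655, 0.418, 0.42, 0 (no UMI in tag 2), 0.794 and, without cluster 10, 0.596, so only the value without dividing-cell UMIs (0.794) was within 1.5-fold and the others had too few UMIs. The count became 3 without cluster 4, with Mgp at 0.65. For tag 3 over tag 1 the higher count (1) became 3 with a minimum of 20 UMIs, and 0 with a minimum of 500 or a fold of 2. The lower count (1, Mgp) became 0 with cutoffs times 1.5, with thinning, among cells of at least 5000 UMIs and with a fold of 2, and 3 with a minimum of 20 UMIs. For tag 4 over tag 2 the higher count stayed at 1 (Mgp) in each alternative tried. The lower count (1, Msx2) became 0 with the own hashtag at least 3 times the next, with cutoffs times 1.5, without called doublets, with thinning, among Y-linked cells, among cells without dividing-cell UMIs, with a minimum of 500 UMIs, with a fold of 2, in clusters 0 and 1 and without cluster 4, and 3 with a minimum of 20 UMIs. The Msx2 ratio, 0.595 over all cells, ran from 0.498 to 0.687 in these, and was within 1.5-fold only with cutoffs times 1.5 (0.687) and with thinning (0.673); the other losses came from too few UMIs or the fold of 2. The alternatives that restrict tag 1, tags 2 and 4, or leave out clusters 4 and 10 were chosen after seeing the data. No called member ratio turned to the other side of 1 in these alternatives. Within clusters, the Bmp2 ratio of tag 2 over tag 1 did in cluster 0, as given above. The Msx2 ratio of tag 4 over tag 2 did in cluster 1, at 1.14 (0.404 to 3.95) on 17 and 5 UMIs, while it was 0.499 (0.262 to 0.963) in cluster 0. The ratio of the highest to the lowest cluster was 13.4 for Runx2 and 16.04 for Mgp, and became 13.8 and 1.61 at resolution 0.4 (9 clusters) and 38.9 and 20.9 at resolution 1.2 (20 clusters). No paired analysis was possible because each group is 1 culture. Depth limits Bmp4, Alpl and Tnfrsf11b, which were under 100 UMIs in each comparison.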

Other observations

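The cells without a tag, which belong to no comparison, lay between the tags for most members. Mgp was at 1842 CPM (1829 to 1855) in these 5307 cells, Runx2 at 75.1 (72.4 to 77.8), Sox9 at 47.2 (45.2 to 49.4), Bmp2 at 21.7 (20.3 to 23.2), Msx2 at 3.19 (2.67 to 3.78) and Enpp1 at 5.04 (4.37 to 5.77). Sox9 and Bmp2 were thus between the levels of tags 1 and 3 and those of tags 2 and 4, while Runx2 was above each tag's value, with an interval that overlapped those of tags 2, 3 and 4. Mgp was above tags 1 to 3 and below tag 4.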
